A study of Mus musculus with 8 samples.

Results

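Platelet granule biogenesis and secretion machinery was examined through 10 genes, Nbeal2, Vps33b, Hps1, Lyst, Rab27b, Unc13d, Stxbp2, Vamp8, Stx11 and Snap23, taken by symbol from the table of gene counts. All 10 were among the 13387 genes in the table and among the 11722 that had enough counts to be tested. The question addressed was whether megakaryocytes (MKs) cultured with bone marrow mesenchymal stromal cells (MSCs) gave a different level of these transcripts than MKs cultured alone. MKs are the marrow cells that make platelets, and MSCs are stromal cells of the marrow that support blood formation.

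The cells came from C57BL/6 mice with no genetic change. Primary marrow MKs, enriched with beads against CD41, were cultured for 18 hours in medium with thrombopoietin, either alone (4 libraries, "MKs alone") or with sorted wild-type MSCs (4 libraries, "cocultures"). Neither group received another agent. The sample labels name megakaryocytes as the cell type, whereas the study's methods describe platelets pooled from several wells per sample. Enrichment by CD41 beads does not remove every other marrow cell, and the cultures with MSCs held them by design. According to the study, suspended MKs and platelets were taken off the MSCs by hand after coculture. It also reports that MKs and MSCs isolated from cocultures stayed pure. MSC markers were still higher in the coculture libraries, as given below, and each library is bulk RNA. In such samples fewer cells of a type and less RNA per cell cannot be told apart.

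Platelets store adhesive proteins and growth factors in alpha-granules and small molecules such as ADP and serotonin in dense granules. MKs build both kinds from endosomal compartments with the help of sorting complexes and large BEACH-domain proteins. On activation, a Rab GTPase and its tethering factor bring the granule to the plasma membrane, and SNARE proteins, which are membrane anchors that zip together, drive fusion and release. Loss of single members is known from inherited disorders with a bleeding tendency, among them gray platelet syndrome, Hermansky-Pudlak syndrome and Chediak-Higashi syndrome, and several members also serve granule release in leukocytes.

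Promoter sequences are shown for Lyst, Stx11 and Snap23. These 3 were the only members whose promoters were used and whose cocultures all lay below all MKs alone. Sequences are RefSeq's for build GRCm38.p6, taken by symbol, and those of 7 of the 10 members were used. Promoters of Vps33b, Rab27b and Unc13d were not included, so the counts below do not cover them. Each sequence shown lies on the strand of the gene and ends before the first exonic base of the annotated gene. Lyst is shown from chr13:13590159-13590396 on the plus strand, Stx11 from chr10:12964299-12964509 on the minus strand, and Snap23 from chr2:120567421-120567670 on the plus strand. Capitals mark the letters GGAA, the core of ETS sites, and GATA, the core of GATA sites, on either strand.
Lyst: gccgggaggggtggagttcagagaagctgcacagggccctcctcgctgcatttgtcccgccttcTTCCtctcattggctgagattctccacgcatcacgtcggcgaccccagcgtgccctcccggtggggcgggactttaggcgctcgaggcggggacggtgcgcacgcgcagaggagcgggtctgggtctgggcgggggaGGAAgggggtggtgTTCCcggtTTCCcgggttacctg
Stx11: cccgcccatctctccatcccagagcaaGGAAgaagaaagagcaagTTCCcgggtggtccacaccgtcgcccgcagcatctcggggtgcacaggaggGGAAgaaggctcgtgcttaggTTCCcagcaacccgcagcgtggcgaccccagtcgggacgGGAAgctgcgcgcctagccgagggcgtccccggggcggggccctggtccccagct
Snap23: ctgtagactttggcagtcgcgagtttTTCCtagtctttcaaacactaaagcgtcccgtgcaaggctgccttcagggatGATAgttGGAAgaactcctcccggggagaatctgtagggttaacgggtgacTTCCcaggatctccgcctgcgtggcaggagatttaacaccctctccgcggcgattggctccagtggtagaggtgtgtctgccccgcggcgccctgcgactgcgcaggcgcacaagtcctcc

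In the 250-base windows that hold these sequences, GGAA was found 4 times for Lyst, 5 times for Stx11 and 3 times for Snap23. GATA was absent from the Lyst and Stx11 windows and occurred 1 time in that of Snap23. Over the 8 windows of the 7 members used, GGAA was present in 8 and GATA in 4. Of 32851 mouse promoter windows of the same length, 93.4% held GGAA and 53.6% held GATA. The longer forms CCGGAA and AGATAA, held by 12.03% and 9.99% of all windows, were searched first and matched 0 of the 8, and the short cores that lie inside them were searched only after that. The RUNX core TGTGGT (14.0% of all windows) was found in 1 of the 8, a window of Hps1, and TGAGTCA, the AP-1 and NF-E2 core (4.46%), in 0. Hps1 has more than 1 window among the 8, and the RUNX match is in the one inside the annotated gene (chr19:42778647-42778896). The GC content of the windows was 69.2% for Lyst, 70.0% for Stx11 and 58.4% for Snap23, against a median of 52.4% over all promoters. These matches describe letters in a window and say nothing of binding.

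The 8 libraries held 4939874 to 12523616 counts. Levels are given as CPM, the reads of a gene scaled to a common library size adjusted with TMM factors, and a count of 3, taken as the limit of detection, corresponded to 0.284 to 0.662 CPM. Coculture replicate 3 stood apart: it had counts for 10735 genes against 12406 to 13193 in the other libraries, although it was the deepest. In it 1012 of 13387 genes were at 0 that had at least 10 counts in every other library, whereas no other library had more than 4 such genes. Among 88 other genes of the granule pathway, 6 were at 0 in it in this way. Results that rest on it are therefore given with and without it.

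The MK identity of the libraries was checked with 15 MK and platelet markers, of which 0 were called higher or lower over all libraries. Without coculture replicate 3, Selp was called higher and Gp1ba and Gp6 lower, with a median log2 fold change of -0.33 over the list. Their summed level was 1911 to 2251 CPM in MKs alone and 1761 to 2361 CPM in cocultures, with Pf4, a platelet chemokine, averaging 841 and 1070 CPM. The 11 neutrophil markers summed to 84626 to 86417 CPM in MKs alone and 4362 to 10228 CPM in cocultures, and all 11 were called lower. MKs alone thus held a large share of neutrophil transcripts, and the part of this in the member values below was not tested.

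A gene was called higher or lower in cocultures if its fold change was at least 2, its adjusted p at most 0.05 in edgeR's quasi-likelihood test over all genes (Benjamini-Hochberg), and its mean at least 1 CPM in at least 1 group. Of the 10 members, 2 were called in either direction, against 20.5% of all tested genes. These 2, Lyst and Snap23, were called lower, against 7.31% of genes. None was called higher (0 of 10, against 13.2%). At an unadjusted p under 0.05 in edgeR, 0 members were higher and 5 were lower, Lyst, Rab27b, Stxbp2, Stx11 and Snap23. The share of all genes at that unadjusted p is not given here, so this count has no background to be read against. DESeq2 called 4 members lower, Lyst, Rab27b, Stx11 and Snap23, against 10.7% of genes, and 0 higher, against 15.8%. The log2 fold change was negative for 9 of 10 members, with a median of -0.96 against 0.03 over all genes tested. The sign held for 9 members when scaled by library size, RLE factors or DESeq2, and for 8 when the libraries were scaled on the MK and platelet markers, where Vps33b turned to 0.15. That last scaling raised the median of all genes by 0.37, to 0.41, and relative to it 9 of 10 members were still lower, with a relative median of -1.02. It also changed the split of calls over all genes, of which 82.3% were higher against 64.3% with TMM factors.

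Every coculture lay below every MK-alone library for 4 members, Lyst, Rab27b, Stx11 and Snap23, against 21.1% of all tested genes, and above for 0 members, against 19.3%. Without coculture replicate 3, 4 members were called lower, Nbeal2, Lyst, Stx11 and Snap23, against 15.4% of 12267 genes, and 0 were called higher, against 20.6%, so that 4 were called in either direction, against 36.0%. All remaining cocultures then lay below all MKs alone for 8 members, all except Nbeal2 and Hps1, against 25.4% of genes, and above for 0, against 30.7%. The median log2 fold change of the members was -0.94 without that library, close to its value with all 8.

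**Figure D1:**
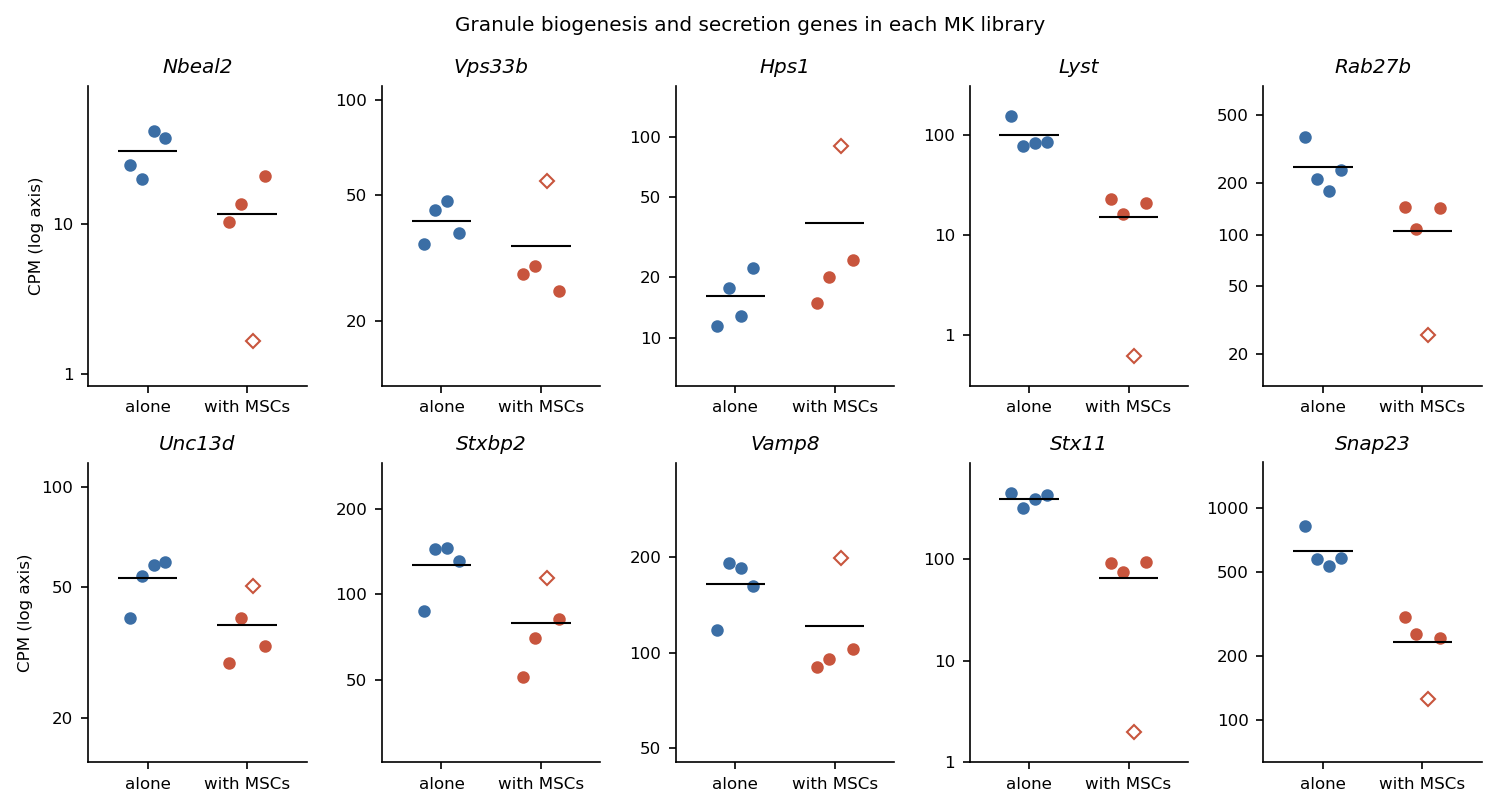
Level of each member in each of the 8 libraries in CPM on a log axis whose range differs between panels (blue, MKs alone; red, cocultures; open diamond, coculture replicate 3; line, mean of 4 libraries). Lyst, Rab27b, Stx11 and Snap23 lie lower in all 4 cocultures, whereas the open diamond is the highest library for Vps33b, Hps1 and Vamp8.

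Coculture replicate 3 divided the members. It lay below the other 3 cocultures for Nbeal2, Lyst, Rab27b, Stx11 and Snap23 and above them for Vps33b, Hps1, Unc13d, Stxbp2 and Vamp8. Its level relative to the mean of the other 3 ran from 0.0228 for Stx11 and 0.0315 for Lyst to 2.07 for Vamp8 and 4.55 for Hps1. The low values rested on few counts, 6 for Lyst, 16 for Nbeal2 and 19 for Stx11. Leaving this library out therefore narrowed the fold change of the first 5 members and widened that of Vps33b, Unc13d, Stxbp2 and Vamp8.

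**Figure D2:**
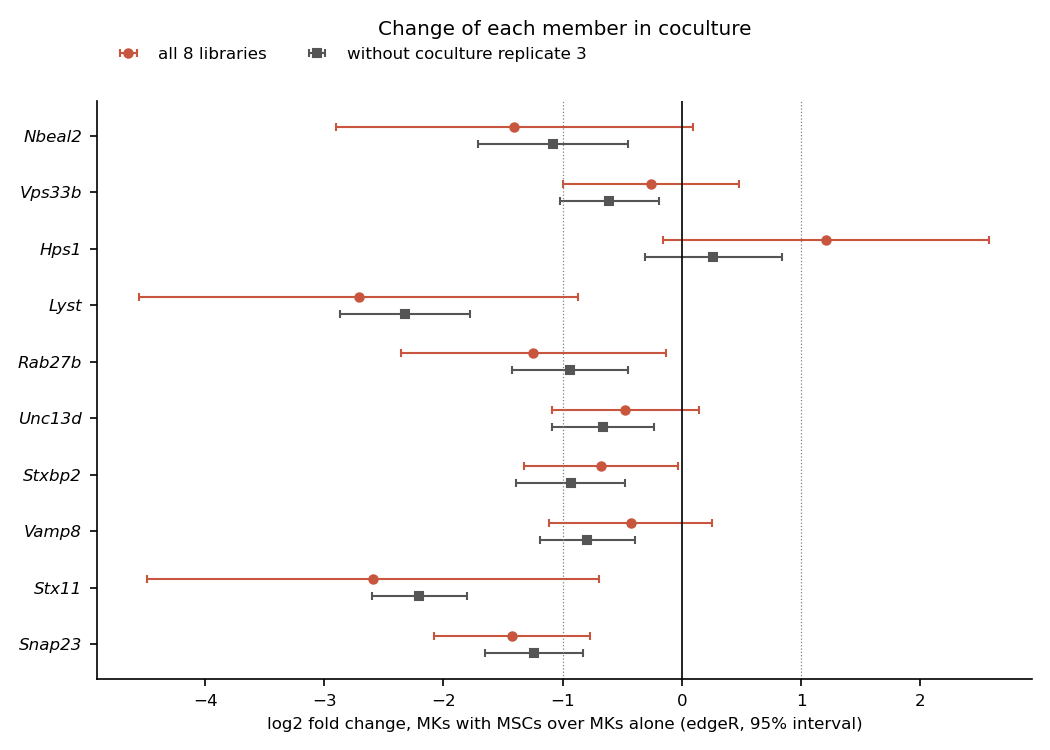
Log2 fold change of each member, cocultures over MKs alone, with the 95% interval from edgeR, for all 8 libraries (red circles) and without coculture replicate 3 (grey squares). Dotted lines mark a fold change of 2. The intervals of Lyst and Stx11 span several log2 units with all libraries, and those of Nbeal2, Vps33b, Unc13d and Vamp8 exclude 0 only without that library.

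Among the genes of granule formation, Lyst fell and the other 3 did not pass the call. Lyst encodes a large BEACH-domain protein that controls the size of lysosome-related organelles, to which dense granules belong, and its gene lies at chr13:13590397-13778803 (GRCm38). Its level was 152, 76.5, 82.1 and 84.8 CPM in replicates 1 to 4 of MKs alone and 22.7, 16.2, 0.628 and 20.8 CPM in those of cocultures. Every coculture was far below the lowest MK-alone library. The log2 fold change was -2.71 (SE 0.81, n = 4 and 4, adjusted p = 0.0416 in edgeR), a 6.56-fold lower level. The call was lost when the libraries were scaled by size alone (adjusted p = 0.0634) or on MK markers (0.0502) in edgeR. It was also lost on leaving out any library other than coculture replicate 3 (adjusted p 0.0628 to 0.105 in edgeR). Without coculture replicate 3 the log2 fold change was -2.32 (SE 0.26, adjusted p = 1.1e-06 in edgeR).

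Nbeal2, another BEACH-domain protein and the gene of gray platelet syndrome, is needed for alpha-granules. It gave 24.5, 19.8, 40.9 and 36.8 CPM in MKs alone and 10.2, 13.4, 1.67 and 20.8 CPM in cocultures. Replicate 4 of the cocultures overlapped the lowest MK-alone library. Its log2 fold change was -1.41 (SE 0.66, adjusted p = 0.162 in edgeR) over all libraries, and -1.08 (SE 0.30, adjusted p = 0.00565 in edgeR) without coculture replicate 3, where the gene was called lower. That call was lost when the remaining 7 libraries were scaled on MK markers (-0.66) or by size alone (-0.94), since neither reached a fold change of 2.

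Vps33b, a Sec1/Munc18-family protein that works with Vipas39 in alpha-granule formation, stood at 35.1, 44.8, 47.8 and 37.9 CPM in MKs alone. In cocultures it stood at 28.1, 29.8, 55.6 and 24.8 CPM. Replicate 3 was the highest of all 8 libraries and the other 3 cocultures were the lowest. Vps33b had a log2 fold change of -0.26 (SE 0.33, adjusted p = 0.610 in edgeR), or -0.61 (SE 0.20, adjusted p = 0.0144 in edgeR) without coculture replicate 3, under the 2-fold limit in both.

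Hps1, a subunit of the BLOC-3 complex that acts on Rab32 and Rab38 in dense-granule formation, was the only member with a positive fold change, except that Vps33b was also positive when libraries were scaled on MK markers. It gave 11.5, 17.7, 12.8 and 22.3 CPM in MKs alone and 14.8, 20.1, 89.7 and 24.3 CPM in cocultures. Apart from the 89.7 CPM of replicate 3, the cocultures overlapped the MKs alone. This gave a log2 fold change of 1.21 (SE 0.60, adjusted p = 0.186 in edgeR) with that library and 0.26 (SE 0.27, 95% interval -0.31 to 0.84, adjusted p = 0.425 in edgeR) without it. A noncoding transcript, Gm16244, is annotated on the opposite strand within this gene, and whether strand was used in quantification is not given in the sources used here.

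The 3 genes of tethering and priming did not pass the call over all 8 libraries. Rab27b is the small GTPase that marks platelet dense granules for docking. Its level was 372, 213, 180 and 239 CPM in MKs alone and 145, 108, 26.0 and 144 CPM in cocultures. The groups did not overlap. The log2 fold change was -1.25 (SE 0.49, adjusted p = 0.100 in edgeR), whereas DESeq2 on the same libraries called it lower (adjusted p = 0.0412). Leaving out coculture replicate 3 gave -0.94 (SE 0.23, adjusted p = 0.00235 in edgeR), short of a fold change of 2.

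Unc13d, which encodes Munc13-4, the Rab27 effector that tethers granules, gave 40.2, 54.0, 58.2 and 59.5 CPM in MKs alone and 29.3, 40.1, 50.2 and 33.0 CPM in cocultures. The groups overlapped through replicate 1 of MKs alone and replicate 3 of the cocultures. Its log2 fold change was -0.47 (SE 0.27, adjusted p = 0.248 in edgeR), and -0.66 (SE 0.20, adjusted p = 0.0110 in edgeR) without coculture replicate 3.

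Stxbp2, the Munc18-2 protein that holds and chaperones syntaxin-11, gave 87.2, 144, 145 and 131 CPM in MKs alone and 51.2, 69.8, 114 and 81.7 CPM in cocultures. Replicate 3 was the only coculture above the lowest MK-alone library. Stxbp2 had a log2 fold change of -0.68 (SE 0.29, adjusted p = 0.122 in edgeR), and -0.93 (SE 0.21, adjusted p = 0.00152 in edgeR) without coculture replicate 3, again under the 2-fold limit.

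Among the SNARE proteins of the fusion step, Snap23 fell, Stx11 had a larger fold change that missed the threshold, and Vamp8 differed least. Snap23, the plasma membrane SNARE that platelets use for granule release, is encoded at chr2:120567671-120601255 (GRCm38). Its level was 819, 572, 533 and 582 CPM in MKs alone and 306, 256, 127 and 245 CPM in cocultures. The highest coculture was well under the lowest MK-alone library, and replicate 3 was nearer to the other cocultures than for any other member that it lowered. The mean was 627 ± 130 CPM against 234 ± 75.9 CPM (SD, n = 4 each), a log2 fold change of -1.42 (SE 0.29, adjusted p = 0.00800 in edgeR), or 2.68-fold lower. The call held in every setting tried except when coculture replicate 3 was left out and the libraries were scaled on MK markers (-0.92).

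Stx11, the syntaxin that pairs with Snap23 and Vamp8 in platelets, lies at chr10:12938209-12964298 (GRCm38). It gave 449, 318, 392 and 426 CPM in MKs alone and 92.8, 75.4, 1.99 and 93.3 CPM in cocultures. The MK-alone libraries were close to each other and every coculture was far below them. Because replicate 3 widened the spread, the log2 fold change of -2.59 (SE 0.84) had an adjusted p of 0.0544 in edgeR and was not called. DESeq2 called it (adjusted p = 0.00455), and without coculture replicate 3 edgeR gave -2.20 (SE 0.19, adjusted p = 5.1e-08), a 4.61-fold lower level.

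Vamp8, the granule-membrane SNARE that is the main vesicle partner in platelet release, stood at 118, 191, 186 and 163 CPM in MKs alone and 90.2, 95.3, 199 and 103 CPM in cocultures. Replicate 3 of the cocultures was the highest library and the other 3 were the lowest. Vamp8 had a log2 fold change of -0.43 (SE 0.30, adjusted p = 0.338 in edgeR), and -0.80 (SE 0.19, adjusted p = 0.00193 in edgeR) without coculture replicate 3.

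To compare levels between genes, CPM was divided by the length of the gene's exons in kilobases (GENCODE vM21, GRCm38). On this scale the SNARE genes led in MKs alone, with Snap23 at 146 ± 30.3, Stx11 at 94.1 ± 13.6 and Vamp8 at 71.1 ± 14.5 CPM per kilobase (SD, n = 4). Snap23 lay above Stx11 in every MK-alone library, while the ranges of Stx11 and Vamp8 overlapped. Stxbp2 at 30.5 and Rab27b at 23.5 CPM per kilobase followed with overlapping ranges, as did Vps33b at 11.9 and Unc13d at 11.3. The BEACH-domain genes and Hps1 were lowest, with Lyst at 5.66, Nbeal2 at 3.19 and Hps1 at 2.74 CPM per kilobase, and only the ranges of Nbeal2 and Hps1 overlapped among these 3.

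In cocultures the order per kilobase was different. Snap23 at 54.4 ± 17.7 and Vamp8 at 52.7 ± 22.3 CPM per kilobase stood together at the top with overlapping ranges. This overlap rests on replicate 3, since the other 3 cocultures held Snap23 at 57.1 to 71.3 and Vamp8 at 39.0 to 44.5 CPM per kilobase. Stx11, at 15.7 ± 10.3 CPM per kilobase, came after Stxbp2 at 19.0 ± 6.32, again with overlapping ranges. Lyst had the lowest mean, 0.864 ± 0.574 CPM per kilobase, and its range overlapped that of Nbeal2 (1.21 ± 0.830). Without coculture replicate 3 Stx11 stood at 20.7 and Stxbp2 at 16.2 CPM per kilobase, so that on this scale their order rests on that library. It also depends on the length used. The exons span 4.21 kilobases for Stx11 and 4.16 for Stxbp2, whereas the longest transcripts span 4.17 and 2.91 kilobases.

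Each member was also set against a related gene in the same library, as the log2 ratio of their levels (CPM + 1), since such a ratio depends little on how libraries are scaled. Over 10 pairs tested with a two-sided exact permutation test, 4 pairs did not overlap between groups and reached the smallest p that 4 against 4 libraries allow, 0.0286. None passed 0.05 after adjustment over the 10 pairs (adjusted p = 0.0714 for these 4, exact permutation test).

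Snap23 relative to Snap29, a more widely used SNARE of the same family, had a mean log2 ratio of 3.73 ± 0.21 in MKs alone and 2.54 ± 0.79 in cocultures (SD, n = 4). The difference was -1.18, and -0.80 without coculture replicate 3. Stx11 relative to Stx4a, the plasma membrane syntaxin, differed by -4.48. Much of this came from coculture replicate 3, where Stx4a stood at 253 CPM against 12.1 to 25.3 CPM elsewhere, and without it the difference was -2.34. Lyst relative to Lrba, a BEACH relative at no more than 7.95 CPM, differed by -2.57, and by -2.30 without that library, in which Lrba was at 0.

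The ratio of Rab27b to Rab27a went the other way. Rab27a, the paralog used for lysosome-related granules in melanocytes and cytotoxic cells, gave 139, 165, 142 and 140 CPM in MKs alone and 22.5, 24.4, 0.209 and 22.7 CPM in cocultures. Its log2 fold change was -3.07 (SE 0.91, adjusted p = 0.0400 in edgeR), and -2.68 without coculture replicate 3, where it had 2 counts. This call was lost with library size only (adjusted p = 0.0602 in edgeR) and on leaving out any library other than coculture replicate 3 (0.0743 to 0.0882). The log2 ratio of Rab27b to Rab27a was 0.72 ± 0.50 in MKs alone and 2.96 ± 1.04 in cocultures, a difference of 2.24, and of 1.73 without coculture replicate 3.

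**Figure D3:**
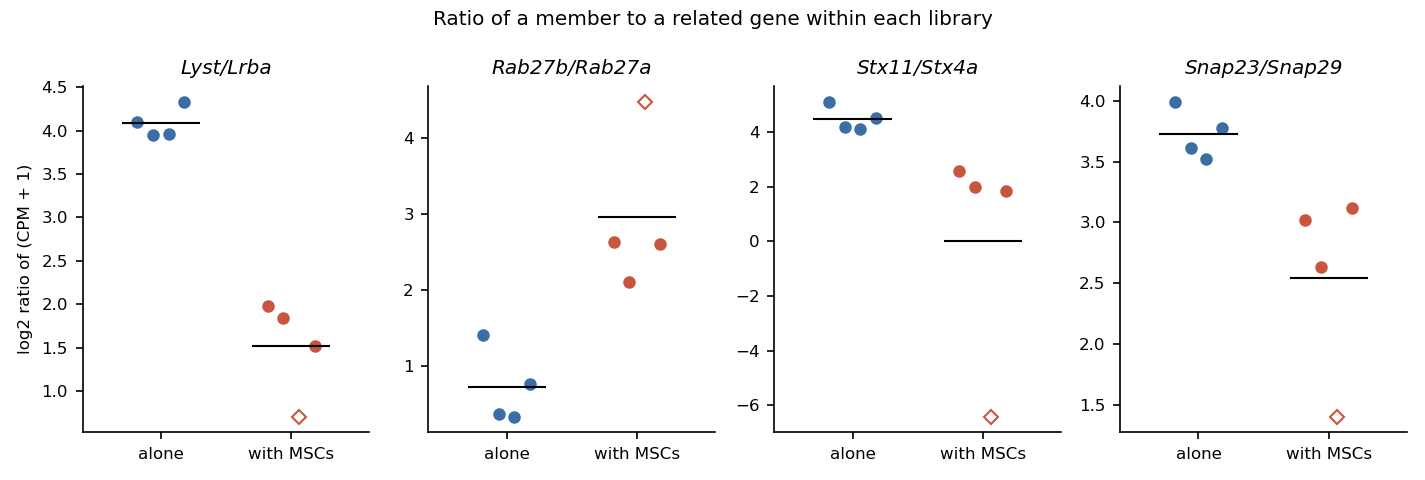
Log2 ratio of a member to a related gene, from CPM + 1, in each library for the 4 pairs whose groups do not overlap (blue, MKs alone; red, cocultures; open diamond, coculture replicate 3; line, mean of 4). Axes differ between panels and do not start at 0. The ratio is higher in cocultures for Rab27b to Rab27a and lower for the others, and the open diamond lies outside the other cocultures in each panel.

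The other 6 pairs overlapped. Nbeal2 to Lrba differed by -1.06 (p = 0.0857, adjusted p = 0.122, exact permutation test) and Vps33b to Vps33a, its paralog in the HOPS complex, by -0.54 (p = 0.0571, adjusted p = 0.114, exact permutation test). Hps1 to Hps4, the other BLOC-3 subunit, differed by 2.10 (p = 0.0857, adjusted p = 0.122, exact permutation test). In coculture replicate 3 Hps4 was at 0 counts, and without this library the difference was 0.59. The 2 subunits of BLOC-3 thus deviated in opposite directions in that library. Vamp8 to Vamp3 differed by -0.54 (p = 0.114, adjusted p = 0.143, exact permutation test). Stxbp2 to Stxbp3 and Unc13d to Unc13b differed by -0.29 and -0.38 (adjusted p = 0.457 for each, exact permutation test), and Unc13b did not exceed 1.44 CPM.

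A wider list of 94 pathway genes other than the members was read from the same fit, of which 88 were in the table and 84 were tested. Of these, 5 were called higher and 8 lower, against 13.2% and 7.31% of all genes tested, and their median log2 fold change was 0.11, against -0.96 for the members and 0.03 for all genes. In this wider list 14 genes lay lower in all cocultures than in all MKs alone, and 15 lay higher, against 21.1% and 19.3% of all genes. Without coculture replicate 3, 7 of 83 were called higher and 11 lower, against 20.6% and 15.4%, with a median of -0.07.

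Of 7 dense-granule Rabs and transporters, 2 were called lower and 2 higher. Of 4 tested genes among Rab27a and Rab27 effectors, 2 were called lower and 0 higher. Over all genes tested, 7.31% were called lower and 13.2% higher. Slc35d3, a transporter-like protein needed for dense-granule contents in mice, gave 154, 98.6, 77.0 and 117 CPM in MKs alone and 48.8, 32.6, 7.64 and 43.9 CPM in cocultures, with a log2 fold change of -1.75 (adjusted p = 0.0393 in edgeR). The groups did not overlap, but the call was lost in edgeR with library size only (adjusted p = 0.0739), with scaling on MK markers (0.0722) and on leaving out any library other than coculture replicates 1 and 3 (0.0584 to 0.101). Rab32, a GTPase of lysosome-related organelles, fell by 1.36 on the log2 scale (adjusted p = 0.00277 in edgeR). Its paralog Rab38 gave 145 to 164 CPM in MKs alone and 43.8, 47.3, 0.419 and 35.4 CPM in cocultures. The groups did not overlap for Rab38, but the log2 fold change of -2.30 was not called (adjusted p = 0.100 in edgeR), and it was called without coculture replicate 3 (-1.91).

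Slc17a9, the vesicular nucleotide transporter that loads ATP and ADP, had a log2 fold change of -1.93 (adjusted p = 0.211 in edgeR). It was at 0 in coculture replicate 3 and was called lower without it (-1.53). In the same group of 7 genes, the endolysosomal channels Tpcn2 (1.96, adjusted p = 0.0482 in edgeR) and Mcoln1 (1.25, adjusted p = 0.0468 in edgeR) rose. Tpcn2 stood at 1.23 without coculture replicate 3, and there Mcoln1 no longer reached a fold change of 2 (0.91). These calls were close to the threshold: with RLE factors the adjusted p in edgeR was 0.0519 for Tpcn2 and 0.0536 for Mcoln1, and leaving out any single MK-alone library or coculture replicate 4 ended both. Among Rab27 effectors, Sytl3 fell by 4.84 on the log2 scale from at most 6.39 CPM, with 2 of 4 cocultures at 0 (adjusted p = 0.0112 in edgeR). Sytl4, a Rab27 effector that platelets use, was near its MK-alone level (-0.09, SE 0.59, adjusted p = 0.931 in edgeR) through the 22.6 CPM of coculture replicate 3. Without that library its log2 fold change was -0.75 (SE 0.34, adjusted p = 0.0724 in edgeR).

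Relatives of the tethering and priming factors gave 2 of 6 tested genes called lower, against 7.31% of all genes tested. Stxbp5, tomosyn, which binds syntaxins and acts in platelet secretion, gave 150, 130, 126 and 112 CPM in MKs alone and 45.1, 44.5, 23.2 and 53.4 CPM in cocultures. The groups were well apart, with a log2 fold change of -1.64 (SE 0.28, adjusted p = 0.00331 in edgeR). Baiap3, a Munc13 relative, was called lower but did not exceed 2.68 CPM, and 3 of 4 cocultures were at 0. Its call was lost on leaving out replicate 1 or 4 of MKs alone or replicate 1 or 2 of the cocultures (adjusted p 0.0781 to 0.0880 in edgeR).

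SNARE genes other than the members gave no lower call in edgeR, while DESeq2 called the Q-SNARE Stx16 lower (-1.01, adjusted p = 8.5e-04). Among 12 other Q-SNAREs, Snap47 rose from 7.72, 9.28, 12.5 and 6.67 CPM in MKs alone to 71.3, 75.9, 62.7 and 81.2 CPM in cocultures. All 4 cocultures, replicate 3 included, were several times above all MKs alone, and the log2 fold change was 3.001 (SE 0.30, adjusted p = 1.8e-04 in edgeR). Stx12, an endosomal syntaxin, rose by 1.10 (adjusted p = 0.00423 in edgeR). Stx2, which platelets also hold, had 0.48 (adjusted p = 0.261 in edgeR). None of 8 R-SNAREs was called by edgeR over all libraries, and in that fit Vamp2 had a log2 fold change of -0.66 and Vamp7 of 0.10. Of the 4 genes that take SNARE complexes apart after fusion, Napa, alpha-SNAP, rose by 1.46 (adjusted p = 0.00447 in edgeR) and Nsf, its ATPase partner, had 0.70 (adjusted p = 0.0867 in edgeR).

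Of the complexes that sort granule proteins, none of 8 class C VPS, HOPS and CORVET genes was called in the edgeR fit. Of 17 BLOC and AP-3 genes 1 was called, Ap3s1 (-1.09, adjusted p = 0.0476 in edgeR). Shares over all genes tested were 7.31% lower and 13.2% higher. With scaling on MK markers, where 82.3% of all calls were higher, edgeR called Dtnbp1 (1.11), Bloc1s2 (1.24) and Ap3d1 (1.09) higher (adjusted p 0.0161 to 0.0239). Ap3s1 overlapped between groups, and its call was lost in edgeR with library size only (adjusted p = 0.0641) and with scaling on MK markers (-0.83, adjusted p = 0.182). The BLOC-2 subunits Hps3, Hps5 and Hps6 had log2 fold changes of -1.11, 1.13 and 0.27. In coculture replicate 3 Hps3 and Hps6 were at 0 while Hps5 stood at 106 CPM, against 10.9 to 25.4 CPM elsewhere. Ap3b1, the AP-3 subunit of another form of Hermansky-Pudlak syndrome, had -0.37, and Vipas39, the partner of Vps33b, had 1.07 (adjusted p = 0.181 in edgeR), or 0.25 without coculture replicate 3. Of 7 alpha-granule partners and BEACH relatives, Wdfy4 fell by 1.23 (adjusted p = 0.0220 in edgeR), a call lost with scaling on MK markers (-0.82, adjusted p = 0.125 in edgeR). None of 11 Ral and exocyst genes was called by edgeR with all libraries, but Exoc6 was called lower by DESeq2 (-2.32, adjusted p = 0.0182) and by edgeR without coculture replicate 3 (-1.89).

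**Figure D4:**
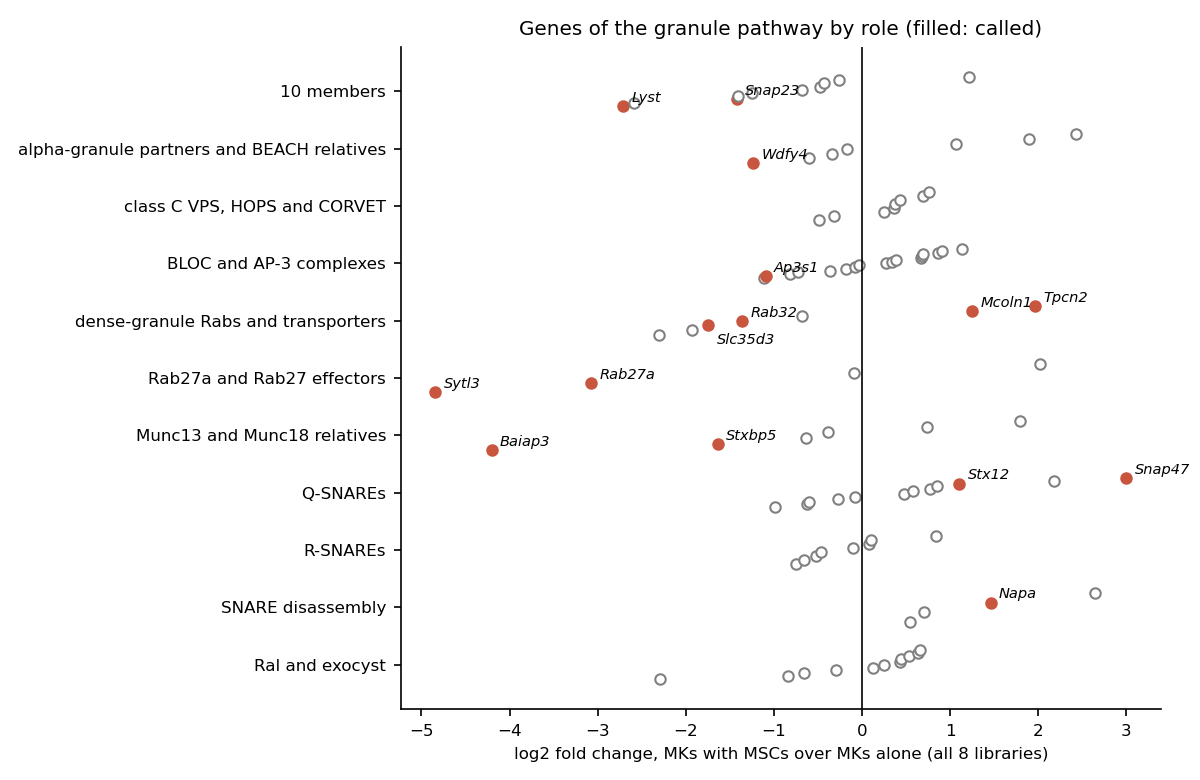
Log2 fold change of each tested gene, cocultures over MKs alone with all 8 libraries, with the 10 members in the top line and 84 other pathway genes by role below (filled red, called; open, not called; the small vertical offset only separates points). The members lie left of 0 except Hps1 (and Vps33b, at 0.15, when libraries are scaled on MK markers), whereas the complexes that sort granule proteins and the Q-SNAREs spread to both sides.

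Levels of other cell types changed beside these results. Scores are given as the mean log2(CPM + 1) of a marker list, compared by a two-sided exact permutation test over 4 and 4 libraries. All 9 lists reached the smallest p possible (0.0286, adjusted p = 0.0286, exact permutation test). The neutrophil score was 11.4 ± 0.17 in MKs alone and 7.94 ± 0.44 in cocultures (SD, n = 4), with S100a8 at 48457 and 4404 CPM. Eosinophil (5.69 against 1.81; Prg2 1035 and 27.1 CPM), mast and basophil (7.29 against 4.23; Cpa3 396 and 20.7 CPM), B cell (5.26 against 3.38; Ms4a1 381 and 53.8 CPM) and T and NK scores (2.67 against 0.96; Nkg7 152 and 16.6 CPM) were also lower in cocultures. Of their tested markers, 7 of 8, 6 of 8, 4 of 10 and 3 of 6 were called lower, in that order.

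The MSC score was 1.24 ± 0.08 in MKs alone and 6.08 ± 1.15 in cocultures, with 6 of 8 tested markers called higher and Sparc at 0.548 and 963 CPM. The macrophage score was 2.68 ± 0.21 and 5.47 ± 0.47, with 8 of 10 called higher and Csf1r at 105 and 263 CPM. The MK and platelet score was 5.63 ± 0.09 and 5.15 ± 0.47, a difference of -0.48 that had an adjusted p of 0.143 by exact permutation test when libraries were scaled by size alone. The erythroid score was 2.77 and 2.21, although its summed level was higher in cocultures, 186 to 329 against 118 to 154 CPM, through Tfrc (231 against 98.4 CPM). The gene table held 10 of 13 MSC markers and 8 of 10 markers each of the erythroid, T and NK, and mast and basophil lists. None of the markers in the table was at 0 in every library of a group. In coculture replicate 3 Gp6 among MK markers and Lepr and Kitl among MSC markers were at 0.

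Members and wider-list genes called lower shared the direction of the neutrophil, eosinophil, mast cell and lymphocyte markers. Wider-list genes called higher shared that of the MSC and macrophage markers. Any gene called in a comparison of these 2 groups would share one of these directions. Granule release in leukocytes uses several of the same genes. The part of each cell type in the member values was not tested, and in these bulk libraries culture with MSCs and a changed cell mixture cannot be told apart.

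**Figure D5:**
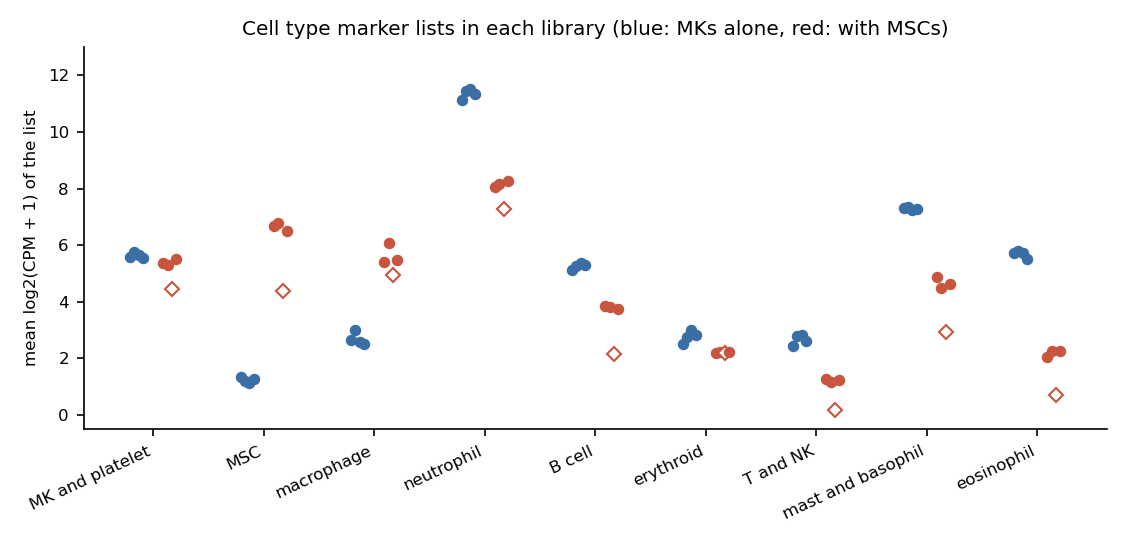
Mean log2(CPM + 1) of 9 cell type marker lists in each library (blue, MKs alone; red, cocultures; open diamond, coculture replicate 3). The neutrophil, eosinophil and mast and basophil lists lie lower in cocultures and the MSC and macrophage lists higher, while the MK and platelet list differs by under 1 unit except in coculture replicate 3.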

How the data were processed

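RNA of 4 MK-alone and 4 coculture libraries was prepared with a low-input SMART-Seq HT kit and sequenced in paired ends. Low-quality reads were dropped with fastp, kallisto and an index of mm10 transcripts gave the abundances, and the authors deposited whole-number counts per gene symbol. Versions, how transcripts were summed and the use of strand are not given in the sources used here. The study's model held a batch that the labels do not name, so it was not included here. The study gives mice as the replicates, whereas the labels only number them.

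The deposited counts were fitted in edgeR 4.0.16 (R 4.3.3; filterByExpr, TMM, robust quasi-likelihood F test) across all genes, with Benjamini-Hochberg adjustment over 11722 genes. The cutoffs followed the study, with 1 CPM in place of TPM. SE is the log2 fold change over the square root of F. Ratios and marker scores used a pseudocount of 1 CPM and exact permutation tests (scipy 1.17.1). CPM per kilobase used the union of GENCODE vM21 exons. The 3-count limit covers counting error only.

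The members, the pathway and marker lists and the pairs were chosen with earlier results of these data known. Named were all members, their 10 partners, the 5 highest and the 5 lowest called genes of the wider list, 12 preset pathway genes and the most abundant gene of each marker list. Rab32, Ap3s1, Wdfy4, Rab38, Exoc6, Stx16, Dtnbp1, Bloc1s2, Ap3d1, Selp, Gp1ba and Gp6 were chosen after their values were seen. Alternatives were DESeq2 1.42.0, RLE factors, library size only, factors from MK and platelet markers, no filter, a pseudocount of 0.5, a replicate block and leaving out each library. Scripts were tested on simulated data.

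Same-numbered libraries of the 2 groups deviated together with r of 0.37, 0.02, 0.15 and 0.03 across genes. Libraries with different numbers gave r from -0.28 to 0.099. Not all same-numbered values lay above these, so the numbers were not taken as pairs. The check cannot settle the pairing, since the coculture deviations were taken from means that include replicate 3. Calls with the replicate number as a block are given below.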

Additional observations from a re-analysis of the deposited data

Results flagged for a closer look

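In 12 of 60 groups of 4 values examined, 1 library lay apart from the other 3 by Dixon's criterion, where chance gives about 1 in 20 groups, or 3.0. In 11 of the 12 this was coculture replicate 3. On the log2(CPM + 1) scale it stood at 0.70 for Lyst, 1.58 for Stx11 and 4.75 for Rab27b, below the other cocultures, and at 7.64 for Vamp8, above them. Its log2 ratio was 6.50 for Hps1 to Hps4 and -6.41 for Stx11 to Stx4a. Its marker scores were 4.38 for MSCs, 2.14 for B cells, 0.17 for T and NK cells and 0.69 for eosinophils, each the lowest coculture. It had counts for 10735 genes. The remaining value was Lyst in MKs alone replicate 1, at 7.26 and above the other MK-alone libraries. The cause of these deviations was not tested.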

How the results depend on the processing

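Depth (4939874 to 12523616 counts) gave every member at least 6 counts, the lowest being Lyst in coculture replicate 3. The median of the members stayed negative in all settings, from -1.08 to -0.58. Members called lower were 4 with DESeq2, against 10.7% of all genes. They were 1 with library size only (6.36% of genes) and 1 with factors from MK and platelet markers (4.21%). On leaving out each library they were 1 to 4, with 4 only without coculture replicate 3, where 15.4% of genes were called lower. Genes called lower were 493 with marker factors. On leaving out each library, genes called ran from 1634 to 4420, higher from 1071 to 2530 and lower from 539 to 1890, with the highest counts again without coculture replicate 3. Wider pathway genes called higher were 3 with RLE factors, 12 with marker factors, 3 without a filter on low counts and 3 to 7 on leaving out each library. Those called lower were 5 with library size only, 5 with marker factors and 2 to 11 on leaving out each library.

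Settings that join the absence of coculture replicate 3 with another choice were added after seeing the data and computed for the members and the counts. With marker factors 4681 genes were called, 3502 of them higher, with 2 members lower and 16 wider pathway genes higher. With library size only 4368 genes were called, 2793 higher and 1575 lower, with 3 members lower and 9 wider pathway genes higher. With DESeq2 4363 genes were called, 2563 higher and 1800 lower, with 4 members lower. With a replicate block 4494 genes were called, 2595 higher and 1899 lower, with 4 members lower. The share of all genes called lower was 9.61%, 12.8%, 14.7% and 15.5% in these settings, in that order. Library size only shifted the median of all genes by 0.13 there.

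Same-numbered libraries were not taken as pairs. With the replicate number as a block over all 8 libraries 1669 genes were called, and 4.89% of all genes were called lower. Of the members, 1 was called lower, Snap23, while Lyst had an adjusted p of 0.0863 in edgeR. Of the wider pathway genes, 3 were called higher and 4 lower. The calls of Rab27a, Sytl3, Baiap3, Wdfy4, Tpcn2 and Mcoln1 were lost there too (adjusted p 0.0687 to 0.108 in edgeR). With coculture replicate 3 left out, the block took Nbeal2 to -0.89, under the 2-fold limit. The block shifted the median of all genes by -0.17.

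Signs turned for genes near 0. With marker factors Vps33b was at 0.15, Snap29 at 0.11 and Sytl4 at 0.27. On leaving out each library, log2 fold changes ran from -0.69 to 0.069 for Lrba, -0.067 to 0.23 for Vamp3, -0.0071 to 0.64 for Hps6, -0.75 to 0.22 for Sytl4 and -0.15 to 0.45 for Vamp7. The cause was not tested in any of these.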
